A study of Mus musculus with 20 samples.

Results

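The expression of genes in 5 FGF19+MYC liver tumors was compared with that in 5 control livers, by RNA sequencing of bulk tissue. These 10 libraries were taken by their labels from the 20 libraries of the series. All mice were wild-type C57BL/6J. The tumors came from independent females injected as young adults by hydrodynamic gene transfer, a rapid tail vein injection that brings plasmids into hepatocytes, with human FGF19, with MYC and with the Sleeping Beauty transposase that inserts both into the genome. The MYC plasmid carried the EF1a promoter. The labels call the control livers non treated, whereas a figure legend of the study describes gene transfer of a plasmid with the red fluorescent protein RFP. The control may or may not therefore include the injection itself. Since both oncogenes are in every tumor and no FGF19-only or MYC-only tissue is among the 20 libraries, the share of each oncogene in a difference cannot be told apart. The reads were counted on mouse genes, so human FGF19 has no value here, and the murine counterpart of FGF19, Fgf15, had 0 counts in all 10 libraries.

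FGF19 is an ileal hormone that acts on hepatocytes through the receptor FGFR4 and its partner beta-klotho, signals through the ERK cascade, and represses the synthesis of bile acids from cholesterol at its first enzyme, Cyp7a1. MYC, with its partner MAX, binds E-box sequences in promoters and is known for raising the transcription of genes for ribosome assembly, nucleotide synthesis and cell division. Hepatocytes of the adult liver rarely divide and devote much of their mRNA to plasma proteins, whereas fetal hepatoblasts divide and express alpha-fetoprotein and imprinted growth genes.

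Between 18004977 and 28417261 reads per tumor and between 21376918 and 44427184 per liver were counted on genes. Values are given as CPM, counts scaled to a common library size with TMM factors. A gene was tested if 5 or more of the 10 libraries reached 1 CPM, which left 13377 genes, and a difference was called at a Benjamini-Hochberg adjusted p of 0.05 in the quasi-likelihood test of edgeR. Every adjusted p below is from this test unless another is named, and a fold change is the tumor level over the liver level on a log2 scale, with its standard error. Gene lists are described by counts and medians, with no test of the list. The study states in a figure legend that the tumors came from independent mice and that replicates were biological.

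Of the 13377 genes, 10286 (76.9%) differed, 5056 (37.8%) higher and 5230 (39.1%) lower in tumors, and in a test against a null of up to a 2-fold change 5384 (40.2%) differed, 2577 (19.3%) higher and 2807 (21%) lower. The median log2 fold change of all genes was -0.03. These percentages are the background against which each count below is to be read. With scaling to library size only, the median of all genes moved by 0.89 on the log2 scale and 75.3% of the called genes were higher, against 49.2% with TMM, so directions are relative to the bulk of genes. The mRNA of livers was concentrated in fewer genes. In livers the 50 most abundant genes held 35.9% ± 1.40 (SD, n = 5) of the gene counts, led by Alb with 10.3%, and in tumors 18.0% ± 2.40 (SD, n = 5), led by H19 with 1.84% (two-sided exact permutation test, p = 0.00794 and 0.0159 after adjustment, where 0.00794 is the lowest p that 5 against 5 can give).

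Both tissues carried the mRNA of hepatocytes. The 13 hepatocyte markers summed to 160160 to 205680 CPM in livers and to 8853 to 25065 CPM in tumors, where none was at 0. By contrast, few transcripts of lymphocytes or granulocytes were found: the 14 markers of T and NK cells summed to 4.16 to 8.98 CPM in tumors and 6.95 to 10.1 CPM in livers, the 8 B cell markers to 2.61 to 4.94 CPM and 5.74 to 10.6 CPM, and the 8 neutrophil markers to 2.48 to 17.1 CPM and 3.03 to 4.89 CPM. Trac, the constant chain of the T cell receptor, and the B cell marker Ighm were at 0 in all 10 libraries. Whether reads of these 2 genes could be counted was not tested. In bulk tissue, fewer cells of a type and less RNA per cell cannot be told apart.

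**Figure D1:**
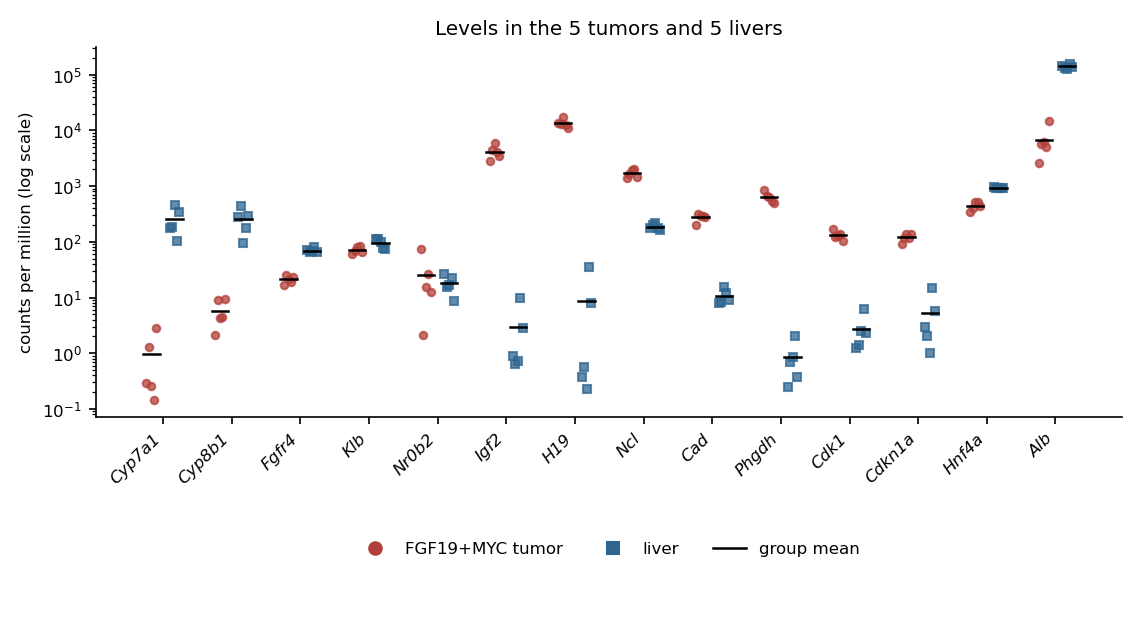
Levels of 14 genes in CPM, on a log axis, in each of the 5 FGF19+MYC tumors (circles) and 5 livers (squares), with the group mean as a line. Cyp7a1 lay between 0.146 and 2.80 CPM in tumors and between 104 and 464 CPM in livers, Igf2 lay between 2856 and 5846 CPM in tumors and at most at 9.92 CPM in livers, and Nr0b2 overlapped between the groups.

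Several libraries stood apart. The 5 tumors differed among themselves more than the livers did, with a larger SD of log2 CPM for 8884 of the 13377 genes. Tumor 1 lay farthest from the other tumors (mean distance 105.8, against 67.8 to 87.2 for the others, as root of summed squared differences of log2 CPM), and tumor 5 lay closest to the livers (207, against 242 to 275). Livers 4 and 5 held traces of transcripts that are abundant in tumors. Of 6 genes with at least 100 CPM on average in tumors and at most 0.05% of that level in livers 1 to 3, liver 4 held 0.226% to 0.69% of the tumor level (median 0.248%) and liver 5 held 0.0353% to 0.193% (median 0.067%). These 6 genes were H19, Igf2, Afp, Dlk1, Bex2 and Lgals2, the last 2 named after their values were seen. Their low level in livers 1 to 3 follows from the way they were picked. Gpc3, a tumor transcript outside the 6, was lower in liver 4 than in each of livers 1 to 3. Other tumor transcripts outside the 6 were highest in liver 4. Among them were Asns at 2.42 CPM (other livers 0.125 to 0.411 CPM) and Psat1 at 3.33 CPM (other livers 0.565 to 0.96 CPM). For H19, livers 1 to 3 were at 0.376, 0.569 and 0.230 CPM, liver 4 at 34.6 and liver 5 at 7.81. The part of these traces in the results was not tested. The fold changes of H19, Igf2 and Afp are given below with and without livers 4 and 5.

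**Figure D2:**
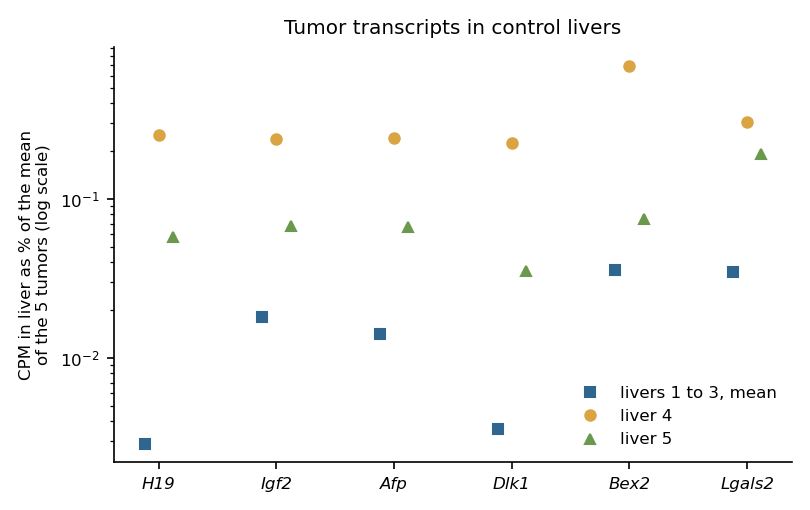
Level of 6 tumor transcripts in control livers as a percentage of the mean of the 5 tumors, on a log axis, for the mean of livers 1 to 3, liver 4 and liver 5. The genes were picked for at most 0.05% in livers 1 to 3, so the low level there follows from the choice. Each gene stood higher in liver 4, with values of 0.226% to 0.69%, than in liver 5.

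All 13 genes of bile acid synthesis fell in tumors, each by more than 2-fold in the stricter test, with a median log2 fold change of -3.48. The steepest was Cyp7a1, the rate-limiting enzyme of the classical pathway, at 0.298, 1.27, 0.261, 0.146 and 2.80 CPM in tumors 1 to 5 and 174, 188, 464, 104 and 344 CPM in livers 1 to 5. The groups lay far apart, and the fitted level was 259-fold lower in tumors (log2 fold change -8.02 ± 0.83, adjusted p = 3.38e-06). Cyp8b1, which makes the 12-hydroxyl group of cholic acid, was at 2.08, 8.95, 4.32, 4.40 and 9.28 CPM in tumors against 274, 448, 97.0, 174 and 291 CPM in livers (log2 fold change -5.46 ± 0.52, adjusted p = 1.8e-06). The enzymes of the alternative pathway fell as well, Cyp27a1 by a log2 fold change of -4.75 ± 0.37 and Cyp7b1 by -4.74 ± 0.59. Slc27a5, which activates bile acids with coenzyme A before conjugation, ranged from 7.79 to 165 CPM in tumors, with tumor 5 the highest, and from 1403 to 1927 CPM in livers (log2 fold change -5.12 ± 0.84, adjusted p = 0.000144). The smallest fall was that of Amacr (log2 fold change -1.32 ± 0.15, adjusted p = 7.52e-06), a racemase of the side chain that also serves branched fatty acids.

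Of 14 tested genes of bile acid transport, 12 fell and 2 rose (median -3.55). Slc10a1, the sodium-dependent importer NTCP, was at 64.6, 55.5, 61.5, 62.7 and 123 CPM in tumors and 1075, 1171, 1048, 857 and 1018 CPM in livers (log2 fold change -3.81 ± 0.25, adjusted p = 8.79e-08). Abcb11, the canalicular export pump, ranged from 15.2 to 85.5 CPM against 886 to 1052 CPM (log2 fold change -4.04 ± 0.39, adjusted p = 1.91e-06). The uptake carrier Slco1a1 was nearly lost, with 0.0372 to 0.0992 CPM in tumors against 19.7 to 130.3 CPM in livers (log2 fold change -9.71 ± 0.66, adjusted p = 1.18e-07). The 2 genes that rose encode basolateral exporters. Abcc4 was at 29.1, 29.2, 57.1, 45.5 and 26.6 CPM in tumors and 6.08, 8.37, 9.33, 3.51 and 3.91 CPM in livers, with no overlap (log2 fold change 2.58 ± 0.32, adjusted p = 1.52e-05). Slc51b, a subunit of the organic solute transporter, was at 37.9, 0.485, 4.21, 6.37 and 2.74 CPM in tumors and 1.25, 0.569, 1.77, 1.75 and 0.691 CPM in livers (log2 fold change 3.11 ± 0.95, adjusted p = 0.0101), so that tumor 1 stood far above the other tumors and tumor 2 lay below every liver. Without tumor 1 the log2 fold change of Slc51b was 1.71. Its call was lost with limma-voom and without livers 4 and 5, and its partner subunit Slc51a had 0 counts in all 10 libraries.

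Most genes of the FGF19 system, a list of receptors, ligands and bile acid regulators, fell in tumors. The 10 tested members include the ligand Fgf21 and the regulators Nr1h4 and Nr0b2, described below. Of the 10, 8 fell, 7 of them by more than 2-fold, and none rose (median -1.56). Fgfr4, the main hepatic receptor of the hormone, was at 16.6, 25.6, 21.4, 18.9 and 23.5 CPM in tumors and 70.8, 65.3, 67.9, 79.4 and 64.6 CPM in livers, 3.28-fold lower without overlap (log2 fold change -1.71 ± 0.13, adjusted p = 2.4e-07). Klb, which encodes beta-klotho, was at 60.3, 67.1, 80.6, 82.6 and 64.8 CPM in tumors and 113, 114, 97.6, 78.5 and 73.6 CPM in livers. The groups overlapped, and the small fall of Klb (log2 fold change -0.42 ± 0.15, adjusted p = 0.0237) turned to a log2 fold change of 0.48 with scaling to library size only and lost its call in 9 of 25 alternative settings. Among ligands, Fgf21, a fasting hormone of the liver, fell from 1.45 to 10.7 CPM in livers to 0.112 to 0.714 CPM in tumors (log2 fold change -4.18 ± 0.62, adjusted p = 6.7e-05).

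Among regulators of bile acid synthesis, the farnesoid X receptor Nr1h4 fell from 116 to 166 CPM to 23.1 to 35.7 CPM (log2 fold change -2.30 ± 0.15, adjusted p = 1.03e-07). Nr5a2, the nuclear receptor that activates Cyp7a1, fell as well (log2 fold change -1.57 ± 0.09, adjusted p = 4.55e-08). The repressor Nr0b2 (SHP), a target of the farnesoid X receptor that restrains Cyp7a1, did not pass the test. It was at 73.0, 2.15, 15.2, 26.2 and 12.4 CPM in tumors and 26.8, 15.7, 17.1, 22.7 and 8.54 CPM in livers (log2 fold change 0.50 ± 0.67, adjusted p = 0.503). Tumor 1 was higher than every liver and tumor 2 was lower than every liver, and without tumors 1 and 5 the log2 fold change was -0.13.

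Of 14 tested feedback genes of the ERK cascade, 6 rose and 5 fell, close to the shares over all genes, with a median of 0.02 that turned to -0.24 without livers 4 and 5. With scaling to library size only, 9 rose and 2 fell (median 0.88), and with 20 libraries in the model 2 of 16 fell and none rose. In the fit of 10 libraries only Egr1 and Phlda1 passed the 2-fold test, both lower. Spry2, an inhibitor of receptor tyrosine kinase signaling, rose from 1.18 to 1.93 CPM in livers to 2.60 to 4.10 CPM in tumors (log2 fold change 1.11 ± 0.21, adjusted p = 0.000478). Etv5, a transcription factor induced by ERK, rose by a log2 fold change of 0.97 ± 0.20 (adjusted p = 0.000825). Egr1, an immediate early gene, was at 5.85, 6.85, 6.70, 9.97 and 18.6 CPM in tumors and 66.0, 44.6, 21.7, 28.1 and 17.3 CPM in livers (log2 fold change -1.88 ± 0.42, adjusted p = 0.00142). Dusp6, the ERK phosphatase, was at 19.2, 25.0, 27.5, 23.1 and 33.4 CPM in tumors and 88.5, 95.0, 29.1, 23.6 and 29.6 CPM in livers (log2 fold change -1.05 ± 0.39, adjusted p = 0.0277). Only livers 1 and 2 stood clearly above the tumors for Dusp6, and its call was lost in 11 of 25 alternative settings.

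Oncofetal genes, which are active in fetal liver and mostly low in the adult organ, had the highest median of the lists. Of 22 tested, 18 rose, all by more than 2-fold, and 4 fell (median 7.08, or 6.35 with the members at 0 in livers set to their lower bound). Without any one tumor, 14 or 15 of them reached the expression filter, of which 11 rose and 2 or 3 fell (median 4.03 to 4.26). Genes near 0 in livers reach the filter only through the 5 tumors. The rise of such genes, and in part the rank of this list, therefore follow from the filter. H19, an imprinted noncoding RNA, was at 13725, 13097, 17253, 12742 and 10865 CPM in tumors. Among genes with an exon length it was the most abundant per kilobase of exon there, at 4753 RPKM against 3.06 RPKM in livers. Mitochondrially encoded genes have other names in the exon annotation, so they had no RPKM and are outside this ranking. The log2 fold change of H19 was 10.61 ± 1.57 (adjusted p = 6.47e-05) and 14.99 without livers 4 and 5. Igf2, the fetal insulin-like growth factor from the same imprinted domain, was at 2856, 4455, 5846, 4108 and 3506 CPM in tumors and 0.878, 0.632, 0.729, 9.92 and 2.80 CPM in livers (log2 fold change 10.46 ± 0.98, adjusted p = 1.42e-06, and 12.40 without livers 4 and 5).

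Afp, the serum marker alpha-fetoprotein, was at 1635, 2294, 3291, 2529 and 1910.5 CPM in tumors and 0.376, 0.379, 0.230, 5.62 and 1.56 CPM in livers (log2 fold change 10.53 ± 1.00, adjusted p = 1.63e-06, and 12.74 without livers 4 and 5). Dlk1, a hepatoblast surface protein, was at 516 to 694 CPM in tumors and at most 1.33 CPM in livers (log2 fold change 11.04 ± 0.87, adjusted p = 3.79e-07), with 22 counts in liver 4, 6 in liver 5 and 2 over livers 1 to 3. Gpc3, a heparan sulfate proteoglycan used as a tumor marker, was at 287, 323, 345, 328 and 266 CPM in tumors and 0.815, 1.86, 2.03, 0.605 and 1.45 CPM in livers (log2 fold change 7.79 ± 0.33, adjusted p = 4.54e-09). For each of these 5 genes the lowest tumor lay far above the highest liver.

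RNA regulators of the fetal program rose too. Igf2bp3, which binds the Igf2 mRNA, reached 40.1 to 67.4 CPM against 0 to 0.846 CPM (log2 fold change 8.15 ± 0.60, adjusted p = 2.24e-07), whereas its paralog Igf2bp2 fell (log2 fold change -2.18 ± 0.51, adjusted p = 0.00198). Lin28b, an inhibitor of let-7 maturation, was at 4.12, 3.03, 4.17, 4.72 and 1.13 CPM in tumors and had 0 counts in every liver, which makes it at least 135-fold higher against 3 counts over the 5 livers. The stem cell factor Sall4 was at 15.8 to 31.0 CPM in tumors, with 2 counts over all livers. The other genes that fell were Cd24a, Prom1 and Plagl1 (log2 fold change -1.06 ± 0.45, adjusted p = 0.0469, a call lost in 18 of 23 alternative settings), with Cd24a at 1.18 to 2.38 CPM in tumors and 2.54 to 8.53 CPM in livers (log2 fold change -1.48 ± 0.34, adjusted p = 0.0016) and Prom1 at 0.516 to 7.70 and 6.64 to 20.4 CPM (log2 fold change -1.89 ± 0.67, adjusted p = 0.0223). Prom1 overlapped between the groups and lost its call in 7 of 25 alternatives.

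Within the MYC network, the 12 tested genes split evenly, 6 higher and 6 lower, 3 each by more than 2-fold (median 0.11, and below 0, at -0.29 to -0.24, when any one tumor was left out). With scaling to library size only, 7 were higher and 3 lower (median 1.00). Murine Myc was at 1.34, 3.397, 3.09, 4.62 and 5.74 CPM in tumors and 5.83, 4.52, 6.53, 10.1 and 5.56 CPM in livers, with overlapping groups (log2 fold change -0.82 ± 0.34, adjusted p = 0.0456), a call that was lost in 16 of 25 alternative settings and a log2 fold change of 0.10 with scaling to library size only. Whether reads of the MYC transgene were counted on murine Myc was not tested. Max, the obligate partner of MYC, rose in each tumor, from 24.3 to 30.2 CPM in livers to 49.8 to 69.4 CPM (log2 fold change 1.27 ± 0.11, adjusted p = 9.67e-07). Among the MXD proteins, which compete with MYC for MAX, Mxd3 rose (log2 fold change 3.72 ± 0.59, adjusted p = 0.000109) and Mxd4 fell (log2 fold change -2.33 ± 0.20, adjusted p = 6.17e-07). Mycl, a paralog of Myc, fell from 29.6 to 47.8 CPM to 0.992 to 6.63 CPM (log2 fold change -3.86 ± 0.51, adjusted p = 2.55e-05).

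All 34 genes of ribosome biogenesis rose, 32 of them by more than 2-fold, with a median log2 fold change of 2.67. Their summed level was 6777 to 8597 CPM in tumors and 1041 to 1205 CPM in livers. Nucleolin (Ncl), which acts in rRNA processing, was at 1375, 1634, 1954, 2021 and 1469 CPM in tumors and 175, 197, 219, 176 and 166 CPM in livers (log2 fold change 3.18 ± 0.18, adjusted p = 3.04e-08). The nucleolar protein Npm1 followed with 1085 to 1813 CPM against 115 to 150.1 CPM (log2 fold change 3.47 ± 0.19, adjusted p = 2.98e-08). The members ranged from Rrp1b (log2 fold change 4.53 ± 0.18, adjusted p = 3.88e-09) to Pno1 (log2 fold change 0.81 ± 0.13, adjusted p = 0.000125). The tumors differed little among themselves in this list, within 0.25 of each other in mean log2 CPM.

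Promoters were searched for the E-box CACGTG, the canonical motif of MYC with MAX. The letters, which read the same on both strands, were looked for in RefSeq windows (build GRCm38.p6) from 250 bases before to 50 bases after each annotated start. They were in 7.15% of 32851 windows of all genes, in 9.86% of 12958 windows of tested genes, in 13.5% of 2204 windows of genes higher by more than 2-fold and in 7.62% of 2966 windows of genes lower by more than 2-fold. For ribosome biogenesis the share was 7 of 38 windows (18.4%), for nucleotide and polyamine synthesis 7 of 26 (26.9%), for bile acid synthesis 0 of 8 and for secreted hepatocyte proteins 0 of 37. In the same order, 30 of 34, 20 of 24, 7 of 13 and 33 of 41 genes had a window. With 8 windows, a share of 0 cannot be told from that of all tested genes. Windows of one gene overlap and promoters differ in base composition, so these shares are a description without a test. The 100 bases below lie upstream of the start of 4 genes that rose and hold the motif, shown in capitals, and were chosen after the sequences were seen. Nop2 methylates rRNA, Rrn3 recruits RNA polymerase I, Impdh2 makes guanine nucleotides and Tyms makes thymidylate.
Nop2, chr6:125131783-125131882, plus strand: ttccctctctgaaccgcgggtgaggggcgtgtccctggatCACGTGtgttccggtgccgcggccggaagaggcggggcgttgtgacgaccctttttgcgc
Rrn3, chr16:13780599-13780698, plus strand: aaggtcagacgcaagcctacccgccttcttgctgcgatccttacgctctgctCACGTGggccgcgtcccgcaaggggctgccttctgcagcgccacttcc
Impdh2, chr9:108560286-108560385, plus strand: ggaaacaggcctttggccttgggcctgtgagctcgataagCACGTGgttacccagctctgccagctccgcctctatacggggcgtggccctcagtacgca
Tyms, chr5:30073626-30073725, minus strand: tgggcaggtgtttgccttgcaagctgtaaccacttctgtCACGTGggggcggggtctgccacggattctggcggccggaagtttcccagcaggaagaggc
The motif begins 60 bases before the start in Nop2, 48 in Rrn3, 110 in Impdh2 and 61 in Tyms. In the ribosome biogenesis genes Pes1, Wdr43, Utp20, Utp4 and Pno1 it begins after the start instead. The purine enzyme Paics, which fell, holds the motif as well. Ncl, Rrp1b, Cad, Odc1 and Impdh1, which rose, hold none in their windows. Nop2 was at 141, 182, 166, 164 and 157 CPM in tumors and 23.3, 23.4, 25.1, 21.0 and 21.3 CPM in livers (log2 fold change 2.83 ± 0.11, adjusted p = 3.08e-09). Rrn3 rose by a log2 fold change of 1.65 ± 0.13, Impdh2 by 2.72 ± 0.12 and Tyms by 2.56 ± 0.15, in each case without overlap between the groups.

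**Figure D3:**
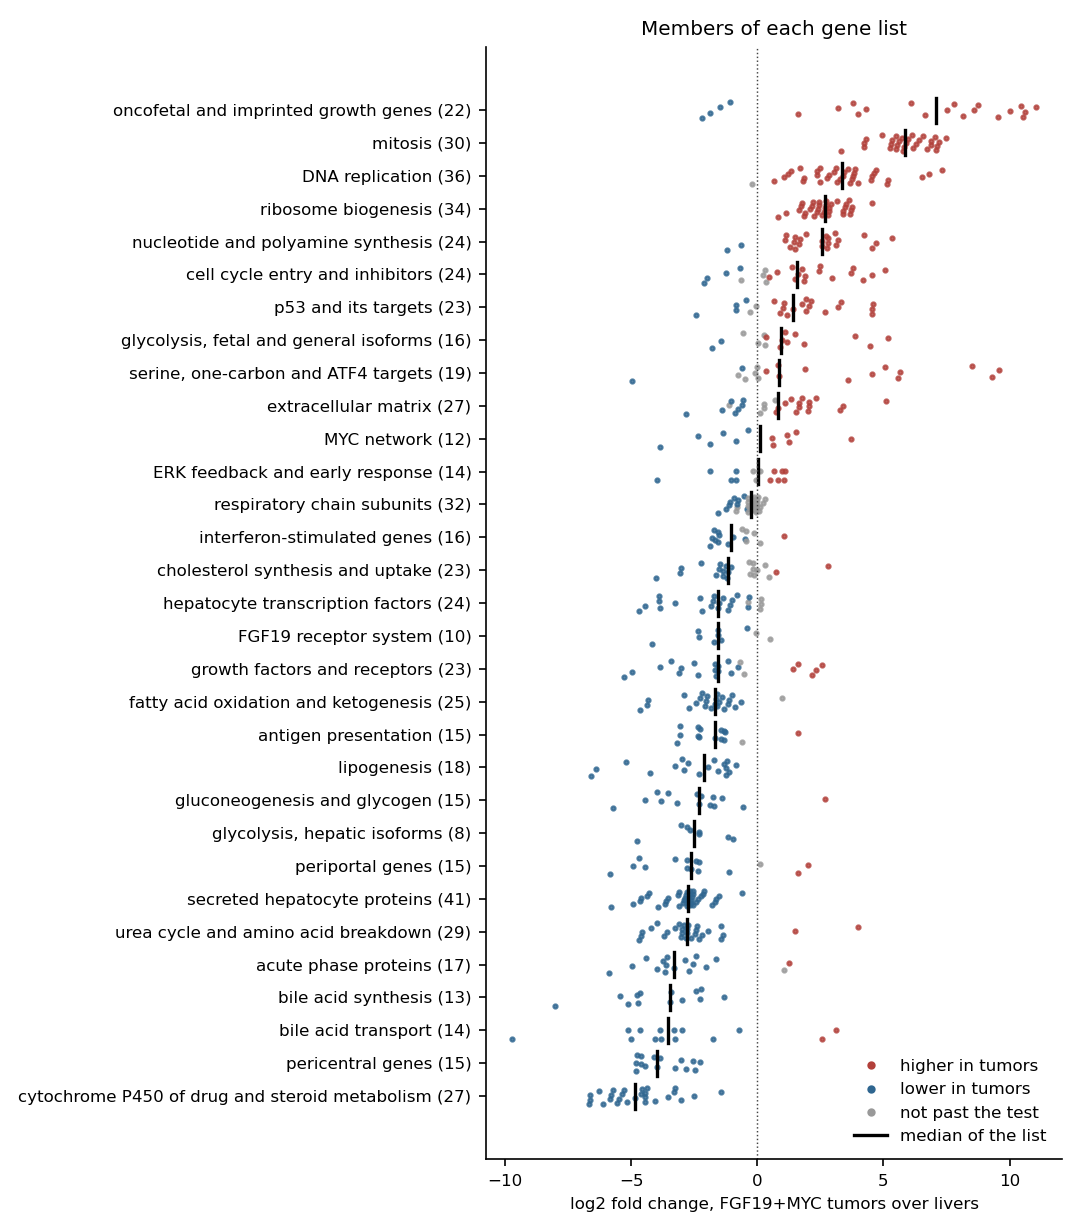
Log2 fold change of each tested member of 31 gene lists, FGF19+MYC tumors over livers, with the number tested in parentheses, colored by the call at an adjusted p of 0.05 and with the list's median as a black line. Medians ran from 7.08 for oncofetal genes to -4.83 for cytochromes P450, with respiratory chain subunits at -0.25. Genes near 0 in livers were tested only if all 5 tumors reached 1 CPM, which raises the medians of lists that hold them.

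Of 24 genes of nucleotide and polyamine synthesis, 22 rose and 2 fell (median 2.57). Cad, the trifunctional enzyme that opens pyrimidine synthesis, was at 196, 309, 293, 293 and 279 CPM in tumors and 8.09, 8.31, 15.5, 11.9 and 9.19 CPM in livers (log2 fold change 4.69 ± 0.23, adjusted p = 1.2e-08). The top of the list was Impdh1, at 167 to 180.2 CPM against 3.19 to 5.99 CPM (log2 fold change 5.32 ± 0.17, adjusted p = 1.43e-09), an isoform that the adult liver hardly expressed. Srm, spermidine synthase, rose to 566 to 619 CPM (log2 fold change 4.55 ± 0.14, adjusted p = 1.2e-09) and Odc1, the rate-limiting enzyme of polyamine synthesis, to 397 to 573 CPM (log2 fold change 2.57 ± 0.16, adjusted p = 5.18e-08). Against the list, the purine enzyme Paics fell (log2 fold change -0.65 ± 0.16, adjusted p = 0.00279), with a log2 fold change of 0.22 under scaling to library size only, and so did Azin1, an inhibitor of the protein that degrades ornithine decarboxylase (log2 fold change -1.20 ± 0.17, adjusted p = 3.97e-05).

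Enzymes of serine synthesis rose from levels near 0. Phgdh, its first enzyme, was at 841, 654, 645, 548 and 504 CPM in tumors and 0.251, 0.695, 0.845, 2.06 and 0.380 CPM in livers (log2 fold change 9.60 ± 0.53, adjusted p = 2.7e-08). Psat1, the next enzyme, was at 1287, 610.5, 726, 729 and 446 CPM in tumors and 0.565, 0.664, 0.960, 3.33 and 0.760 CPM in livers (log2 fold change 9.29 ± 0.62, adjusted p = 1.04e-07). Asparagine synthetase (Asns), a target of the stress factor ATF4, rose from 0.125 to 2.42 CPM to 155 to 291 CPM (log2 fold change 8.51 ± 0.66, adjusted p = 3.28e-07), and the amino acid transporter Slc7a5 from 5.77 to 8.16 CPM to 136 to 175 CPM (log2 fold change 4.54 ± 0.13, adjusted p = 9.79e-10). Of all 19 serine, one-carbon and ATF4 genes, 12 rose, 2 fell and 5 were not called (median 0.86). Among the latter was Ddit3 (CHOP), a stress factor induced through ATF4 (log2 fold change -0.49 ± 0.28, adjusted p = 0.125, and 0.41 with scaling to library size only). Aldh1l1, which oxidizes formyl-tetrahydrofolate, fell (log2 fold change -4.96 ± 0.68, adjusted p = 3.67e-05), with 184 CPM in tumor 5 and at most 47.7 CPM in the others.

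Genes of cell division rose throughout. All 30 mitosis genes rose by more than 2-fold (median 5.86), and 35 of 36 genes of DNA replication rose (median 3.35). Some mitosis genes near 0 in livers reached the expression filter only through the 5 tumors, so the rise of these follows from the filter. Cdk1, the mitotic kinase, was at 173, 123, 125, 136 and 105.3 CPM in tumors and 1.25, 1.42, 2.53, 6.35 and 2.28 CPM in livers (log2 fold change 5.61 ± 0.42, adjusted p = 2.3e-07). Mki67, the proliferation antigen, was at 73.4 to 133 CPM against 1.38 to 5.56 CPM (log2 fold change 5.33 ± 0.36, adjusted p = 1.04e-07). The steepest mitosis gene was the spindle checkpoint kinase Ttk (log2 fold change 7.49 ± 0.39, adjusted p = 1.73e-08). Mcm10, a replication initiation factor, was the one replication gene that was not called (log2 fold change 0.69 with scaling to library size only), at 36.9, 41.3, 46.9, 52.99 and 40.4 CPM in tumors and 28.4, 54.8, 57.5, 63.7 and 49.7 CPM in livers (log2 fold change -0.22 ± 0.19, adjusted p = 0.316). Among livers, liver 4 was the highest for Cdk1, Mki67 and Ttk.

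At the entry into the cycle, cyclins moved in opposite directions. Ccne1, cyclin E1, was at 74.4, 70.4, 68.8, 79.5 and 58.8 CPM in tumors and 1.88, 1.74, 3.88, 1.33 and 1.66 CPM in livers (log2 fold change 5.05 ± 0.27, adjusted p = 1.91e-08), whereas Ccnd1, cyclin D1, was at 23.7, 47.2, 45.3, 46.8 and 81.0 CPM in tumors and 187, 147, 385, 152 and 90.7 CPM in livers (log2 fold change -1.98 ± 0.39, adjusted p = 0.000663). Cdk4, a partner of cyclin D, rose (log2 fold change 2.96 ± 0.15, adjusted p = 1.36e-08). Of 24 genes of cycle entry and its inhibitors, 16 rose and 4 fell (median 1.56).

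Of 23 genes of the p53 pathway, 17 rose and 4 fell (median 1.42). Trp53 itself was at 97.5, 129, 123, 123 and 116 CPM in tumors and 29.2, 31.4, 29.9, 27.4 and 25.0 CPM in livers (log2 fold change 2.04 ± 0.11, adjusted p = 2.17e-08). Cdkn1a (p21), the inhibitor of cyclin-dependent kinases, was at 92.2, 119, 136, 115 and 137 CPM in tumors and 2.95, 2.05, 0.998, 14.7 and 5.81 CPM in livers (log2 fold change 4.53 ± 0.60, adjusted p = 2.77e-05), with liver 4 the highest liver, and the log2 fold change was 5.89 without livers 4 and 5. Mdm2, which degrades p53, rose from 24.1 to 27.3 CPM to 60.0 to 90.1 CPM (log2 fold change 1.42 ± 0.13, adjusted p = 9.72e-07), and the death receptor Tnfrsf10b from 0.348 to 0.691 CPM to 7.39 to 14.3 CPM (log2 fold change 4.59 ± 0.27, adjusted p = 4.64e-08). Fas, another death receptor and p53 target, fell from 16.3 to 20.5 CPM to 2.24 to 4.86 CPM (log2 fold change -2.42 ± 0.21, adjusted p = 6.44e-07).

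In several pairs of related genes, the gene that was scarce in livers held a larger share of the pair in tumors. As a share of the summed RPKM of a pair, pyruvate kinase M (Pkm) held 76.5% ± 4.15 (SD, n = 5) in tumors and 1.41% ± 0.675 in livers, the rest being the liver form Pklr. The glucose transporter Slc2a1 (GLUT1) held 37.4% ± 8.36 against 3.18% ± 1.31, the rest being Slc2a2 (GLUT2), the transporter of the hepatocyte, which remained the more abundant. Igf2 held 99.7% ± 0.286 of the pair with Igf1 against 0.713% ± 0.923.

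In 2 further pairs the tumors were spread widely. Mat2a, the methionine adenosyltransferase of dividing cells, held 17.3% to 74.6% of its pair with Mat1a in tumors and 1.41% to 1.97% in livers. Pck2, the mitochondrial PEPCK, held 2.02% to 63.8% of its pair with Pck1 in tumors and 0.0594% to 0.139% in livers. Tumor 5 gave the lowest and tumor 1 the highest share in both pairs. In each of these pairs the shares of tumors and livers did not overlap. Over the lists, all 8 hepatic forms of glycolytic genes fell (median -2.49), and of 16 fetal and general forms 10 rose and 2 fell (median 0.94).

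**Figure D4:**
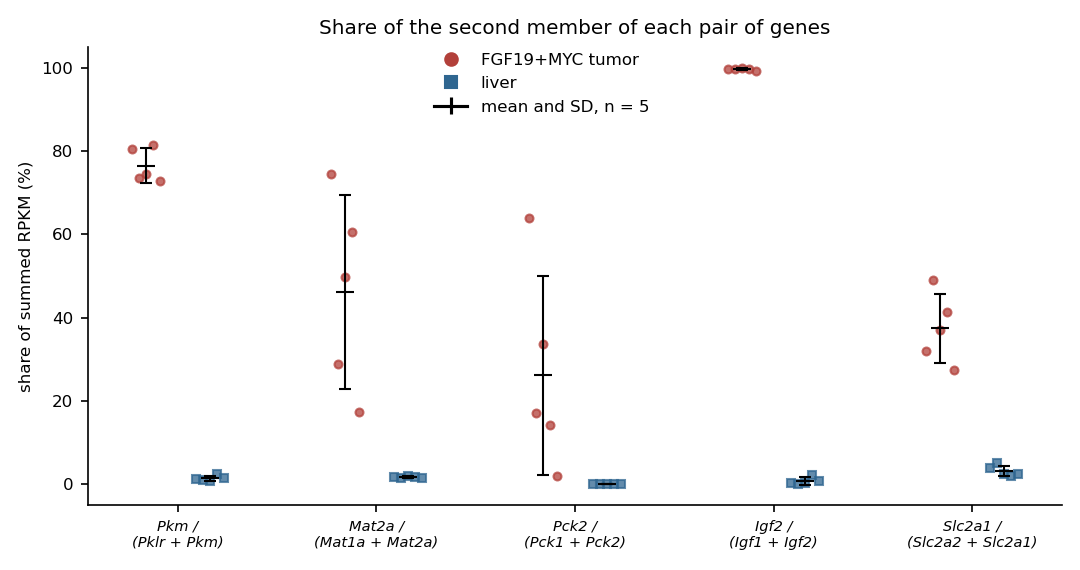
Share of the second gene of 5 pairs in the summed RPKM of the pair, in percent, in the 5 FGF19+MYC tumors (circles) and 5 livers (squares), with mean and SD. The shares in livers were at most 5.10% in every pair, whereas those in tumors ranged from 2.02% for Pck2 in tumor 5 to 99.9% for Igf2.

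The pathways of hepatic metabolism fell. Of 15 genes of gluconeogenesis and glycogen, 14 fell and Pck2 rose (median -2.33). Pck1, the rate-limiting enzyme of gluconeogenesis, was at 35.1, 122, 45.9, 116 and 795 CPM in tumors and 4378, 4216, 3357, 6195 and 5959.5 CPM in livers (log2 fold change -4.44 ± 0.84, adjusted p = 0.00046), and Fbp1 at 4.76, 21.7, 8.68, 10.6 and 111 CPM in tumors and 1409 to 1891 CPM in livers (log2 fold change -5.70 ± 0.86, adjusted p = 8.01e-05). Tumor 5 kept the most of both mRNAs. In the urea cycle and amino acid breakdown 27 of 29 genes fell (median -2.80), and Mat2a was among the 2 that rose.

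Genes of fat oxidation and of fat synthesis both fell. Of 25 genes of fatty acid oxidation and ketogenesis, 24 fell (median -1.66) and 1 was not called. All 18 genes of lipogenesis fell (median -2.13). Scd1, the desaturase of stearate, was at 4.96, 166, 161, 111 and 235 CPM in tumors and 5177, 11288, 22841, 14802 and 10782 CPM in livers (log2 fold change -6.58 ± 0.88, adjusted p = 2.87e-05), and tumor 1 was the lowest. In cholesterol synthesis and uptake 13 of 23 genes fell, 2 rose and 8 were not called (median -1.15), and with scaling to library size only 7 fell and 9 rose (median -0.24). Srebf2, the transcription factor of the pathway, was among the 2 that rose (log2 fold change 0.75 ± 0.16, adjusted p = 0.00103).

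Of 32 subunits of the respiratory chain, 9 were lower, none was higher and 23 were not called (median -0.25). Without tumor 1, 22 were lower and 1 was higher (median -0.44), and with scaling to library size only 20 were higher and 2 lower (median 0.61). Sdha, of complex II, fell (log2 fold change -1.23 ± 0.13, adjusted p = 4.56e-06). Cox4i1, of complex IV, was at 1181, 332, 336, 289 and 352 CPM in tumors and 447, 511, 414, 706 and 665 CPM in livers and did not pass the test (log2 fold change -0.14 ± 0.39, adjusted p = 0.752, and 0.67 with scaling to library size only). Tumor 1 was above every liver, and the other 4 tumors were below every liver. For mitochondrially encoded genes the share of all gene counts was 2.29% ± 0.424 (SD, n = 5) in tumors and 3.04% ± 0.610 in livers (two-sided exact permutation test, p = 0.0556, and 0.0556 after adjustment). With the 50 most abundant genes left out of the total the shares were 2.75% ± 0.583 and 4.61% ± 0.863 (exact permutation test, p = 0.00794).

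Most hepatocyte transcription factors fell. Of 24 tested, 20 fell, 13 of them by more than 2-fold, and none rose (median -1.55), whereas 13 fell and 5 rose with scaling to library size only (median -0.65). Hnf4a, the central regulator of the hepatocyte, was at 339, 407, 516, 513 and 440 CPM in tumors and 968, 939, 907, 933 and 927 CPM in livers (log2 fold change -1.08 ± 0.15, adjusted p = 4.27e-05). The groups did not overlap, but with scaling to library size only the log2 fold change was -0.17 (adjusted p = 0.397). Nr1i3 (CAR), the xenobiotic sensor, fell from 149 to 368 CPM in livers to 6.22 to 28.5 CPM in tumors (log2 fold change -4.46 ± 0.48, adjusted p = 4.32e-06).

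All 41 secreted hepatocyte proteins fell, 40 of them by more than 2-fold. Alb, albumin, was at 2640.5, 5727, 6154, 5016 and 14528 CPM in tumors and 145550, 134530, 128180, 156800 and 139230 CPM in livers (log2 fold change -4.37 ± 0.48, adjusted p = 5.1e-06). Despite the fall it had the sixth highest RPKM in tumors among genes with an exon length, which leaves out mitochondrially encoded genes. Apoa1, the main protein of HDL, fell from 7625 to 20627 CPM to 2704 to 5668 CPM (log2 fold change -1.65 ± 0.33, adjusted p = 0.000738), and Serpinf2, the plasmin inhibitor, fell least of all 41 (log2 fold change -0.59 ± 0.17, adjusted p = 0.00809, and 0.31 with scaling to library size only). Acute phase proteins fell too, 15 of 17, with Saa3 alone higher (log2 fold change 1.26 ± 0.28, adjusted p = 0.00143). Hamp, the iron hormone hepcidin, was at 40.7 to 113 CPM in tumors and 1246 to 2204 CPM in livers (log2 fold change -4.41 ± 0.33, adjusted p = 2.23e-07).

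All 27 cytochrome P450 genes fell (median -4.83, and -6.25 without tumor 5), and all 15 pericentral genes fell (median -3.96, and -5.23 without tumor 5). Cyp2e1 was at 27.8, 172, 47.0, 128 and 1159 CPM in tumors and 8177, 10215, 6905, 4868 and 7719 CPM in livers (log2 fold change -4.63 ± 0.96, adjusted p = 0.000882). Targets of beta-catenin that mark the zone around the central vein were among them. Axin2 was at 0.0496, 0.425, 0.0745, 0.316 and 1.55 CPM in tumors and 22.7, 21.7, 14.7, 3.93 and 6.46 CPM in livers (log2 fold change -4.77 ± 0.77, adjusted p = 0.000129), Lgr5 at 0 to 1.58 CPM and 4.17 to 9.28 CPM (log2 fold change -3.96 ± 0.73, adjusted p = 0.000375), and Glul at 137, 203, 200.4, 230.5 and 402 CPM and 1628, 1581, 1373, 790 and 1040.3 CPM (log2 fold change -2.45 ± 0.31, adjusted p = 1.77e-05). In the periportal list 12 of 15 fell and 2 rose (median -2.62), the latter being Cdh1, E-cadherin (log2 fold change 2.03 ± 0.29, adjusted p = 5.65e-05), and Aldh1b1 (log2 fold change 1.6 ± 0.19, adjusted p = 1.12e-05).

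Growth factors and their receptors mostly fell, 16 of 23, with 5 higher (median -1.56). Igf1, the growth factor of the adult liver, was at 10.7, 21.5, 10.9, 16.2 and 49.3 CPM in tumors and 612, 793, 656, 695 and 662 CPM in livers (log2 fold change -4.98 ± 0.44, adjusted p = 9.44e-07), along with the growth hormone receptor Ghr (log2 fold change -3.10 ± 0.17, adjusted p = 2.22e-08) and Igfals, which stabilizes circulating IGF (log2 fold change -5.27 ± 0.51, adjusted p = 1.89e-06). Egfr fell from 168 to 307 CPM to 10.1 to 32.2 CPM (log2 fold change -3.41 ± 0.29, adjusted p = 7.63e-07), while its relative Erbb2 rose from 1.58 to 2.82 CPM to 10.1 to 19.98 CPM (log2 fold change 2.55 ± 0.23, adjusted p = 1.26e-06). Igf2r, which clears IGF2, rose (log2 fold change 1.63 ± 0.18, adjusted p = 4.55e-06). Igfbp1 rose as well, with overlap, at 1223, 277, 639, 693 and 467 CPM in tumors and 219, 89.9, 46.7, 306 and 79.2 CPM in livers (log2 fold change 2.16 ± 0.54, adjusted p = 0.00301).

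Markers of the other cells of the liver changed unequally. Of 14 markers of stellate cells and fibroblasts, 9 fell and 2 rose (median -2.31), and their sum was 104 to 254 CPM in tumors and 548 to 758 CPM in livers, none being at 0. The quiescent markers Lrat (log2 fold change -4.19 ± 0.47, adjusted p = 6.15e-06) and Reln (log2 fold change -3.05 ± 0.55, adjusted p = 0.000304) fell, whereas Acta2, the actin of contractile cells, was at 26.6, 42.3, 29.2, 47.7 and 43.4 CPM in tumors and 1.51, 1.14, 1.497, 2.54 and 1.21 CPM in livers (log2 fold change 4.62 ± 0.26, adjusted p = 3.25e-08), and Tagln rose as well (log2 fold change 2.05 ± 0.28, adjusted p = 3.81e-05). Of 17 endothelial markers, 10 fell and 2 rose (median -1.38, sum 169 to 382 CPM against 503 to 829 CPM). Clec4g, a sinusoidal lectin, fell (log2 fold change -3.83 ± 0.33, adjusted p = 8.26e-07) and Cd34, of capillaries, rose (log2 fold change 2.15 ± 0.21, adjusted p = 2.02e-06).

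Of 18 macrophage markers, 8 fell, 3 rose and 7 were not called (median -0.18), with sums of 527 to 839 CPM in tumors and 610 to 1019 CPM in livers. With scaling to library size only, 3 fell and 8 rose (median 0.69), and with 20 libraries in the model 4 fell and 2 rose. Clec4f, a marker of Kupffer cells, was at 5.36, 10.3, 21.6, 17.4 and 39.9 CPM in tumors and 138, 117, 144, 168 and 159.6 CPM in livers (log2 fold change -2.94 ± 0.43, adjusted p = 6.18e-05). Gpnmb, a lysosomal glycoprotein, rose from 0.121 to 0.627 CPM to 5.51 to 26.9 CPM (log2 fold change 5.33 ± 0.51, adjusted p = 1.71e-06), and Cd68 rose (log2 fold change 1.51 ± 0.14, adjusted p = 1.73e-06). All 6 tested erythroid markers fell, with sums of 31.9 to 115 CPM in tumors and 142 to 310 CPM in livers, and 4 of 6 tested cholangiocyte markers fell, with sums of 22.7 to 95.3 CPM and 74.9 to 160 CPM, of which 2 fell and 1 rose with scaling to library size only.

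Of 27 genes of the extracellular matrix, 15 rose and 7 fell (median 0.83). Col1a1, the chain of fibrillar collagen I, was at 34.1, 248, 105.2, 130 and 213 CPM in tumors and 14.2, 19.2, 5.87, 16.02 and 19.8 CPM in livers (log2 fold change 3.28 ± 0.50, adjusted p = 8.07e-05), and the elastase Mmp12 rose from 0.0605 to 1.01 CPM to 1.19 to 35.6 CPM (log2 fold change 5.10 ± 0.79, adjusted p = 9.19e-05). Both were lowest in tumor 1. Fn1, fibronectin, which hepatocytes secrete into plasma, fell (log2 fold change -2.82 ± 0.36, adjusted p = 1.76e-05). Antigen presentation was lower for 13 of 15 genes (median -1.69), and for 8 with scaling to library size only (median -0.80). B2m, the light chain of MHC class I, was at 115, 215, 172, 174 and 319.9 CPM in tumors and 1649 to 1969 CPM in livers (log2 fold change -3.17 ± 0.26, adjusted p = 5.2e-07), and the heavy chain gene H2-K1 fell too (log2 fold change -3.06 ± 0.28). The proteasome subunit Psmb10 alone rose (log2 fold change 1.61 ± 0.30, adjusted p = 0.000441), with 352 CPM in tumor 1 and at most 138 CPM in the other tumors. Of 16 interferon-stimulated genes, 10 fell and 1 rose (median -1.05), whereas 4 rose and 2 fell with scaling to library size only (median -0.12) and 7 fell with 20 libraries in the model.

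Between the highest and the lowest of the 5 tumors, the mean log2 CPM of DNA replication genes spanned 0.30 and that of oncofetal genes 0.35, against 3.81 for cytochromes P450 and 3.37 for pericentral genes. The span was 0.63 for fatty acid oxidation, 1.48 for hepatocyte markers and 2.09 for cholangiocyte markers. Tumor 5 was the highest for cytochromes P450 and pericentral genes, by 2.31 and 1.88 above the mean of the 5 tumors. It was also the highest for hepatocyte markers (1.03), stellate markers (0.95) and endothelial markers (0.54). Tumor 1 was the lowest for these lists, and the highest for respiratory chain subunits (0.85) and fatty acid oxidation (0.41). The part of admixed liver or stroma in these differences was not tested. Relative to the mean of the other tumors, 342 genes were higher and 3 lower by more than 2 on the log2 scale in tumor 5, and 221 higher and 267 lower in tumor 1, against 3 to 14 higher and 12 to 33 lower in tumors 2 to 4. At the other end, Srsf2, a splicing factor, was at 314 to 323 CPM in the 5 tumors (log2 fold change 1.82 ± 0.10, adjusted p = 3.39e-08).

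**Figure D5:**
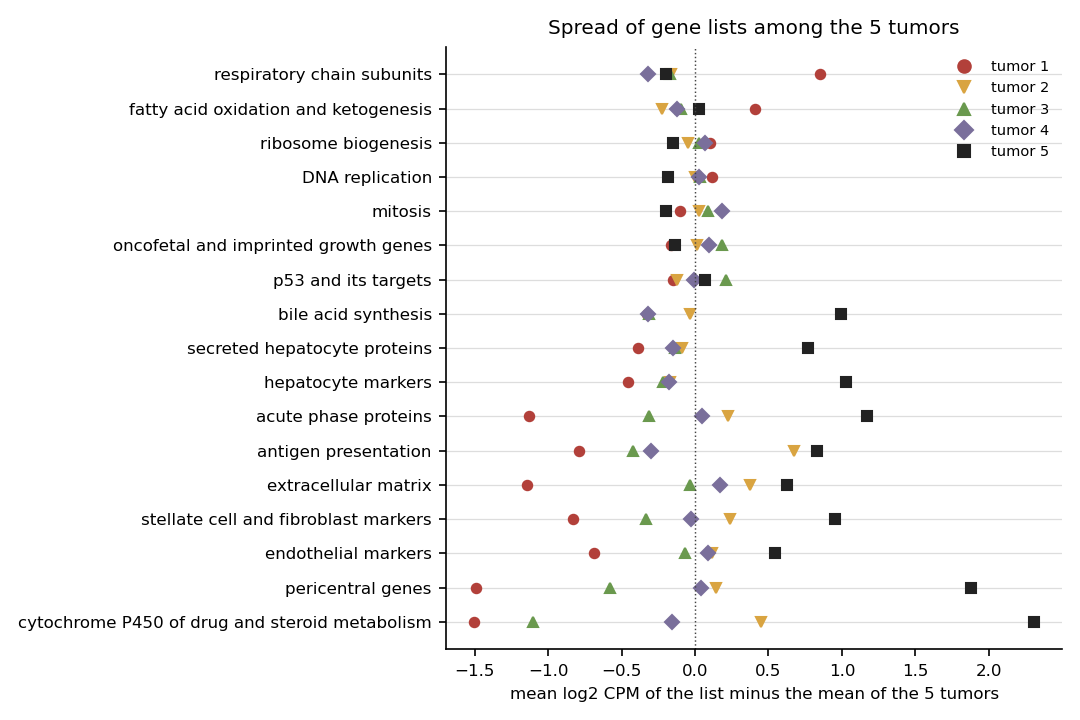
Mean log2 CPM of 17 gene lists in each of the 5 FGF19+MYC tumors, as the difference from the mean of the 5 tumors. Tumor 5 reached 2.31 for cytochromes P450 and tumor 1 reached -1.5, whereas ribosome biogenesis, DNA replication and oncofetal genes stayed between -0.18 and 0.18 of the mean in every tumor.

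The FGF19+MYC tumors were also set against sgTrp53+MYC tumors, in which MYC was combined with a guide RNA against Trp53, a model of liver cancer that carries MYC without FGF19. In one model over 20 libraries, 2258 of 14333 genes (15.8%) differed, 1143 higher and 1115 lower in FGF19+MYC tumors. Since sgTrp53+MYC counts come from a separate table, the table and the model cannot be told apart. The models differ both in FGF19 and in the guide against Trp53, so the parts of these in a difference cannot be told apart either. Of the 23 p53 genes 16 were higher, Cdkn1a at 104 to 164 CPM against 18.8 to 32.8 CPM (log2 fold change 2.62 ± 0.48, adjusted p = 0.00127) and Trp53 at 109.7 to 155 CPM against 18.7 to 79.9 CPM (log2 fold change 1.58 ± 0.26, adjusted p = 0.000615), and 3 were lower. Among bile acid synthesis genes, Cyp7a1 was lower, at 0.176 to 3.30 CPM against 4.53 to 92.6 CPM (log2 fold change -5.53 ± 1.54, adjusted p = 0.0198), Hsd3b7, which acts after Cyp7a1, was higher (log2 fold change 1.41 ± 0.39, adjusted p = 0.0189), and the other 11 did not pass the test.

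Of 41 secreted proteins, 12 were higher in FGF19+MYC tumors, among them Alb (log2 fold change 1.73 ± 0.50, adjusted p = 0.0251), and none was lower. Of 23 oncofetal genes, 6 were higher, among them Afp at 1839.6 to 3966 CPM against 295 to 1267 CPM (log2 fold change 2.32 ± 0.63, adjusted p = 0.0169) and Sall4 (log2 fold change 3.74 ± 0.86, adjusted p = 0.00632). H19 and Igf2 did not pass the test (log2 fold change 0.41 ± 0.81, adjusted p = 0.779, and log2 fold change 0.17 ± 0.55, adjusted p = 0.868). Fgfr4 and Klb did not pass it either, with log2 fold changes of 0.40 (adjusted p = 0.0841) and 0.18 (adjusted p = 0.612), while Nr1h4 was lower in FGF19+MYC tumors (log2 fold change -0.85 ± 0.19, adjusted p = 0.00561). In ribosome biogenesis 4 of 34 genes were higher and none lower, and in mitosis 2 of 30 were lower and none higher.

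Beyond the lists, the 10 largest increases and the 10 largest decreases among genes with at least 10 CPM in the higher group were examined. The oncofetal genes Dlk1, H19, Afp and Igf2 were in the first set. Lingo3, a neuronal membrane protein, was at 37.8, 23.6, 19.4, 13.8 and 21.6 CPM in tumors and had 0 counts in all livers, and Arxes1 ranged from 13.9 to 27.3 CPM in tumors and also had 0 counts. Against 3 counts over the 5 livers they were at least 860-fold and at least 739.7-fold higher. Car12, a membrane carbonic anhydrase, was at 86.2, 97.1, 107, 120.2 and 83.0 CPM in tumors and at 0 in 4 livers (log2 fold change 11.32 ± 0.48, adjusted p = 5.09e-09). Shbg, the globulin that carries sex steroids and that the adult mouse liver does not express, was at 45.9, 22.0, 32.6, 29.4 and 28.8 CPM in tumors, with 3 counts over all livers.

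The largest decrease was that of A1bg, a plasma glycoprotein, at 1100.4, 1251, 231, 1764 and 507 CPM in livers and with 2 counts over the 5 tumors (ratio of liver to tumor 69516, counting interval 19244 to 574016). Slco1a1, Cyp7a1, the sulfotransferase Sult3a1 (log2 fold change -8.05 ± 0.76, adjusted p = 1.61e-06) and the carboxylesterase Ces1f (log2 fold change -7.49 ± 1.05, adjusted p = 4.18e-05) were in the same set. Ces1f was at 0.0496, 3.00, 0.298, 0.535 and 9.16 CPM in tumors and 392 to 590.1 CPM in livers, another gene lowest in tumor 1. The prostaglandin D synthase Ptgds (log2 fold change -9.48 ± 0.91, adjusted p = 1.82e-06) and the neurotrophin receptor Ntrk2, at 28.7 to 75.8 CPM in livers (log2 fold change -7.49 ± 0.74, adjusted p = 2.14e-06), belonged to it as well.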

How the data were processed

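RNA was sequenced from snap-frozen tumors and from livers of fasted mice, 5 libraries per group, with a stranded mRNA kit and paired 150 base reads. Per the study's methods and the submitters' processing notes, the authors aligned the reads with HISAT2 to the mouse genome mm39 and counted them per RefSeq gene with htseq-count. The deposited values are raw counts for 50559 genes, not normalized, and the 5 summary lines of the counter were removed. Reads not aligned made up 20.87% to 34.04% of the reads of a tumor library and 15.7% to 26.47% of a liver library. Groups were taken from the labels.

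Genes that reached 1 CPM in 5 or more of the 10 libraries were fitted in edgeR 4.0.16 (R 4.3.3) with TMM factors (1.123 to 1.453 in tumors, 0.7049 to 0.7846 in livers), the quasi-likelihood test and Benjamini-Hochberg adjustment, and a test against a log2 fold change of 1 (glmTreat). The main design is without replicate numbers, and an edgeR likelihood ratio test was an alternative, since the study's methods name edgeR with tagwise dispersion but no test. FGF19+MYC and sgTrp53+MYC tumors were compared in a fit of all 20 libraries, in which CPM are scaled anew. CPM and RPKM were computed from the counts, RPKM with summed GENCODE exon length, overlapping exons merged. Genes whose symbol has no match in GENCODE, such as the mitochondrially encoded ones, had no RPKM. Counts over a gene at 0 in a group were set to 3 counts for a lower bound. Shares of counts were compared by exact two-sided permutation tests. Alternatives used limma 3.58.1 and DESeq2 1.42.0, other scalings, filters and libraries left out, and the scripts were tested on simulated data. Promoters are RefSeq windows of GRCm38.p6, an older build than that of the counts, and 10060 of 13377 tested genes had one.

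The groups compared and the 40 gene lists were chosen with earlier results of these data known. Genes were named as anchors of the lists, as their extreme or deviating members, as the 10 largest changes in each direction, or for the largest and smallest spread among tumors. Beside these, Bex2, Cdk4, Cyp27a1, Ghr, Hsd3b7, Lgals2, Nop2, Nr1h4, Nr5a2, Psat1, Rrn3, Sall4, Sdha, Slc27a5, Slc51a, Srm and Tyms were named after their values were seen. Some members of the lists are counted but not reported here by name. Intervals and lower bounds from counts cover counting error only.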

Additional observations from a re-analysis of the deposited data

Results flagged for a closer look

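For each gene named above, the 5 values of each group were examined for a single library far from the others (Dixon's ratio of gap to range above 0.71 for 5 samples). Of 261 groups of 5, 49 held such a library. Chance flags about 1 in 20 groups of genes not chosen by their values, but these genes were in part chosen for deviating or for their spread and share libraries, so the count is not set against chance. Tumor 5 stood above the other tumors for 20 genes, all of which were lower in tumors than in livers. These included Aldh1l1 (184 CPM, others 16.7 to 47.7), Axin2 (1.55 CPM, others 0.0496 to 0.425), Clec4g (10.8 CPM, others 3.32 to 4.46), Cyp27a1 (53.2 CPM, others 16.1 to 18.5) and Cyp2e1 (1159 CPM, others 27.8 to 172). Tumor 5 was also high for Cyp7b1 (2.5 CPM, others 0.149 to 0.608), Fbp1 (111 CPM, others 4.76 to 21.7), Igf1 (49.3 CPM, others 10.7 to 21.5), Igfals (16 CPM, others 3.07 to 5.94) and Lgr5 (1.58 CPM, others 0 to 0.389). It stood apart likewise for Lrat (3.06 CPM, others 0.347 to 1.04), Mycl (6.63 CPM, others 0.992 to 1.56), Nr1i3 (28.5 CPM, others 6.22 to 12), Ntrk2 (0.862 CPM, others 0 to 0.223) and Pck1 (795 CPM, others 35.1 to 122). Further such genes were Ptgds (0.119 CPM, others at 0), Reln (20.6 CPM, others 1.24 to 4.97), Slc10a1 (123 CPM, others 55.5 to 64.6), Slc27a5 (165 CPM, others 7.79 to 35) and Sult3a1 (0.743 CPM, others 0 to 0.122). 

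Liver 4 stood above the other livers for 14 genes, all but Mycl of them higher in tumors than in livers. In liver 4 these were Acta2 (2.54 CPM, others 1.14 to 1.51), Afp (5.62 CPM, others 0.23 to 1.56), Aldh1b1 (256 CPM, others 141 to 166), Asns (2.42 CPM, others 0.125 to 0.411) and Bex2 (1.27 CPM, others 0 to 0.158). To them belonged Car12 (0.242 CPM, others at 0), Cdk1 (6.35 CPM, others 1.25 to 2.53), Dlk1 (1.33 CPM, others 0 to 0.207), H19 (34.6 CPM, others 0.23 to 7.81) and Igf2 (9.92 CPM, others 0.632 to 2.8). The last of them were Igf2bp3 (0.846 CPM, others 0 to 0.242), Mycl (47.8 CPM, others 29.6 to 31.7), Psat1 (3.33 CPM, others 0.565 to 0.96) and Shbg (0.121 CPM, others 0 to 0.0346). The part of the traces of tumor transcripts in liver 4 in these values was not tested.

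Tumor 1 stood above the other tumors for Amacr (113 CPM, others 69.9 to 78.7), Cox4i1 (1181 CPM, others 289 to 352), Lgals2 (339 CPM, others 123 to 170), Paics (270 CPM, others 157 to 189), Pck2 (140 CPM, others 37.1 to 57.4), Psmb10 (352 CPM, others 110 to 138), Slc51b (37.9 CPM, others 0.485 to 6.37) and Tyms (72.2 CPM, others 42.3 to 49.5), and below them for Cad (196 CPM, others 279 to 309) and Max (49.8 CPM, others 66 to 69.4). Tumor 2 alone held reads of A1bg (0.0607 CPM, others at 0). Among livers, liver 1 was high for Cd24a (8.53 CPM, others 2.54 to 3.95) and low for Paics (258 CPM, others 308 to 323), liver 3 was high for Ccne1 (3.88 CPM, others 1.33 to 1.88) and liver 5 for Ntrk2 (75.8 CPM, others 28.7 to 37.8).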

How the results depend on the processing

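The count of 10286 genes that differed between FGF19+MYC tumors and livers ranged from 9170 to 9936 when one library was left out and from 9242 to 12878 under the other settings, and the count past the 2-fold test ranged from 4577 to 5175 and from 4738 to 6980. No called gene was called in the opposite direction under any setting except scaling to library size only, where 504 were. The replicate numbers in the labels do not pair the samples (correlations of same-numbered deviations from -0.184 to 0.225, and 1 tumor of 5 correlated best with its own number). With the replicate block 9880 genes differed. The comparison with sgTrp53+MYC tumors fell from 2258 to 1342 genes with 10 libraries in the model. The share of mitochondrially encoded counts, 0.752 percentage points lower in tumors, passed the test without the 50 most abundant genes (-1.855, exact permutation p = 0.00794) and when tumor 1 or liver 4 was left out, with differences of -0.9001 and -0.888, and ranged from -0.9001 to -0.4904 over all libraries left out.

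With scaling to library size only, the sign turned for Klb (0.4768), Myc (0.1039), Paics (0.2175), Mcm10 (0.6879), Serpinf2 (0.3128), Cox4i1 (0.6693) and Ddit3 (0.4051) and for the medians of respiratory chain subunits (0.6137) and macrophage markers (0.6885). Nr0b2 turned with the replicate block (-0.0517), with limma-voom (-0.1962), without tumor 1 (-0.2021, up to 0.898 without tumor 2) and without tumors 1 and 5 (-0.1284). Without livers 4 and 5, Cox4i1 (0.0766) and the ERK median (-0.2431) turned, and without tumors 1 and 5, Mcm10 (0.067), the ERK median (-0.13) and the MYC network median (-0.2195) did. Cox4i1 lay between 0.0538 and 0.0971 without tumor 2, 3, 4 or 5 and at -0.5854 without tumor 1. The MYC network median was -0.3538 without a filter and between -0.2903 and -0.2436 without any one tumor (up to 0.1165 without a liver, and 1.0011 with scaling to library size only), and the ERK median lay between -0.1503 and -0.0298 without tumor 1 or liver 3, 4 or 5 reached 0.2305 without liver 2 and was 0.8769 with scaling to library size only. Leaving out livers 4 and 5 or tumors 1 and 5 together was chosen after seeing the data. Without any one tumor, 25 of 30 mitosis genes reached the filter (15 without tumors 1 and 5), since genes near 0 in livers then have too few libraries above it, and those tested rose. The causes of the other shifts were not tested.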
